A study of Arabidopsis thaliana with 36 samples.

Results

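The genes described here are those whose transcripts rose with salt in every one of 6 sorted cell populations of the Arabidopsis thaliana root. Members were chosen by the salt response itself: a probe set was taken when its mean of log2(signal + 16) over 3 arrays was higher with salt by at least 0.8 in each population. Of 22746 probe sets other than Affymetrix controls, 168 met this rule, and 10 of them were then left out by name, among them genes of late embryogenesis abundant proteins, dehydrins and UDP-glucosyltransferases. The remaining 158 probe sets are the members. Of these, 62 name exactly 1 gene, 62 different genes in all, 1 lists several genes and 95 have no gene in the annotation used. Only the 62 are named. Because the salt responses chose the members, those responses are given below as values without a test.

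The cells came from seedlings of ecotype Columbia, 6 days after germination. The 6 reporter lines carry green fluorescent protein in a defined part of the root: WER::GFP marks epidermis with lateral root cap, PET111 the columella root cap, CORTEX the cortex, SCR::GFP the endodermis with the quiescent centre, WOL::GFP the stele, and S32 the protophloem. Roots stayed on standard medium or were moved to 140 mM NaCl for 1 h, then their walls were digested and the fluorescent protoplasts were sorted, so every group had also gone through digestion and sorting. There were 3 arrays in each of the 12 groups, and the study asks how cell identity along the radial axis shapes the response to salt.

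Salt outside a root lowers the water potential and brings in sodium ions. Cells respond within minutes with calcium signals and with the hormone abscisic acid (ABA), whose receptors inhibit phosphatases and so release kinases that activate bZIP transcription factors. The targets known from this pathway include hydrophilic protective proteins, chaperones, enzymes that remove reactive aldehydes, transporters and a set of repressors that feed back on the pathway. Some of these responses are shared by many cell types, while growth and wall genes are known to differ by tissue.

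Signals are linear MAS5 intensities with a common trimmed mean, and array medians ran from 62.1 to 95.6. Correlations between replicates of a group were 0.89 to 0.989 on the log2 scale over all probe sets, and no pair of arrays was identical. The labels do not say that replicates came from separate plantings, so the spread between them may be technical. Of 25 marker genes of the 6 populations only 7 had a probe set naming 1 gene, so most population labels could not be checked. AT1G09750, the marker of the CORTEX line, had a signal of 2650 ± 413 (SD, n = 3) in cortex on standard medium, 235 there with salt, and group means of 21.6 to 57 in the other 5 populations before salt. Other markers separated their population less or not at all. The cortex marker CO2 read 16.4 in cortex and 37.7 in protophloem on standard medium, and was too low to be tested. On that medium the endodermis marker EN7 read 447 in endodermis and 383 in cortex, and AGL42 read 153 in endodermis and 144 in protophloem. The stele marker PHV read 381 in stele and 373 in columella. Another stele marker, LHW, was highest in stele (596, next 402 in endodermis), and the protophloem marker OPS was highest in protophloem (72.5, next 32.2 in stele).

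On 3 arrays the members as a set stood furthest apart from the other replicates. In stele on standard medium, replicate 3 lay a median of 0.86 above the other 2 arrays over the members, and it was the highest of the group for 124 of 158. With salt, replicate 3 lay 0.97 below the other 2 in columella and 0.80 below them in cortex, where it was the lowest for 123 and 126 members. Over all probe sets tested, the same 3 medians were -0.05, 0.13 and 0.06. With salt, replicate 3 was also lower over the members in endodermis (-0.40, lowest for 94), stele (-0.37, lowest for 112) and protophloem (-0.11). In epidermis it lay at -0.00. On standard medium replicate 3 was higher in protophloem (0.28), epidermis (0.22) and cortex (0.16), and lower in columella (-0.12) and endodermis (-0.03). Without the 3 arrays that stood furthest apart the rule gave 166 members, 151 of them among the 158. The groups also differed in the ratio of 5' to 3' signal of the GAPDH control probe sets, a measure of RNA integrity and amplification. In epidermis its mean was 1.52 ± 0.163 before salt and 0.248 ± 0.14 after it (SD, n = 3 arrays). The ratio was 0.444 ± 0.0596 and 0.15 ± 0.076 in cortex, and 0.0499 ± 0.0318 and 0.162 ± 0.088 in protophloem. With this ratio as a covariate the rule gave 112 members, 93 of them among the 158. The smallest of the 6 responses was then under 0.8 for 30 of the 62 named members and below 0 for 8 of them: AT3G16530 (-0.98), AT5G16010 (-0.90), AT2G22880 (-0.60), AT3G19660 (-0.50), AT1G14550 (-0.46), AT1G24600 (-0.31), AT1G52560 (-0.27) and AT5G01380 (-0.15). Under that fit these 8 were not higher with salt in every population.

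The rise was largest in stele. The median log2 response of the members was 2.55 in stele, 2.12 in cortex and 2.05 in epidermis, followed by 1.82 in protophloem, 1.72 in columella and 1.54 in endodermis. Over the 17633 probe sets tested, the medians in the same order were -0.23, 0.17, 0.07, -0.07, -0.23 and -0.08. Without the 3 arrays that stood apart, the medians were 2.86 in stele, 2.37 in cortex and 2.07 in columella. Stele held the largest response of 51 of the 158 members (32.3%, against 8.24% of all probe sets tested), and the smallest of only 4. Endodermis held the largest of 2 members and the smallest of 46 (29.1%, against 9.1% of all tested). Epidermis held the largest response of 43 members (27.2%, against 21.1%) and columella of 11 (6.96%, against 6.15%). Cortex held that of 34 (21.5%) and protophloem of 17 (10.8%), below the 33.9% and 23.2% of all tested. The lower limit of 0.8 sets the small end of these values in each population, and no test was made of their order. The range between a member's largest and smallest response had a median of 1.97, against 1.48 over all tested. Error in the single responses also widens such a range, and whether a member's rise was equal between populations was not tested.

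**Figure D1:**
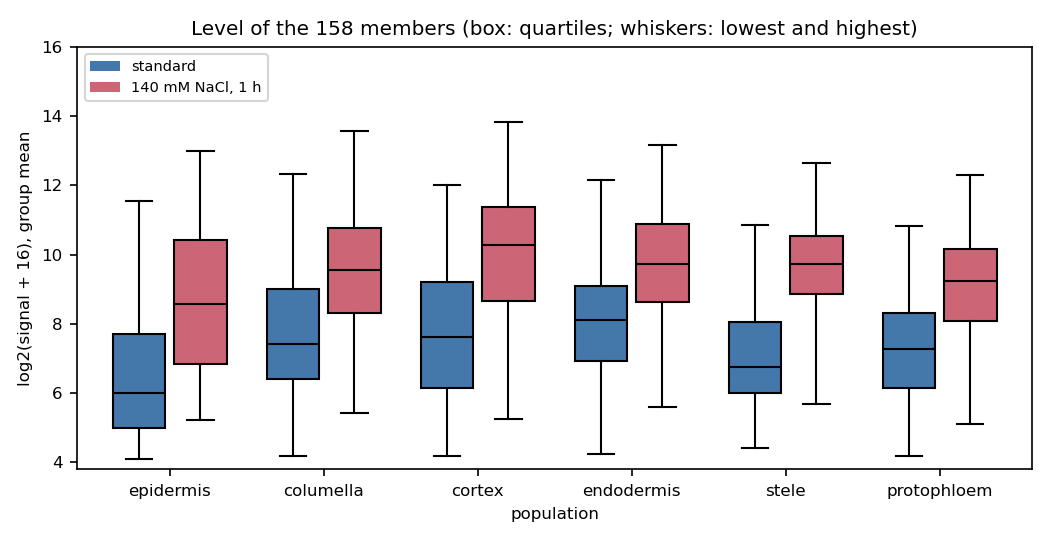
Level of the 158 members in each of the 12 groups, as the mean of log2(signal + 16) over 3 arrays; boxes show the quartiles and the median, whiskers the lowest and highest member. The epidermis has the lowest median on both media (signals of 47.8 and 363), and the cortex has the highest with salt (1224).

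On standard medium the median signal of the members over the 18 arrays was 122, against 78.5 for all probe sets, undetected ones included, and 57 members were above the 40th percentile of the array on each of the 18. A single member was below that percentile on all 18. With salt the median signal was 707, and 126 members were above the percentile on each salt array. By population, the median level of the members on standard medium was lowest in epidermis with a signal of 47.8 and in stele with 90.8, then 139 in protophloem, 154 in columella, 181 in cortex and 260 in endodermis. With salt it was 363, 823, 587, 735, 1224 and 824 in the same order. Over the probe sets tested, the standard medians were 130 in epidermis and 152 in stele, above those of the members, and 120 to 152 in the other populations. In cortex and endodermis the members' standard medians lay above those of all tested (120 and 135). They were also above them, by less, in columella (152 over all tested) and protophloem (132).

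All 158 members passed the filter on low signals and were in the limma fit over the whole table. How far the word induced holds for each member can be read from its arrays, as a description, since these contrasts chose the members. The 3 salt arrays lay above the 3 standard arrays in all 6 populations for 93 members. Over all probe sets tested this share was not counted, and it cannot exceed the 7.81% separated in endodermis. Such separation was found for 154 members in epidermis (29.8% of all tested), 153 in stele (16.1%), 141 in cortex (29.8%), 138 in protophloem (15.9%), 132 in endodermis (7.81%) and 121 in columella (9.02%). For the other members the label of a gene induced everywhere rests on means whose arrays overlap in at least 1 population.

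**Figure D2:**
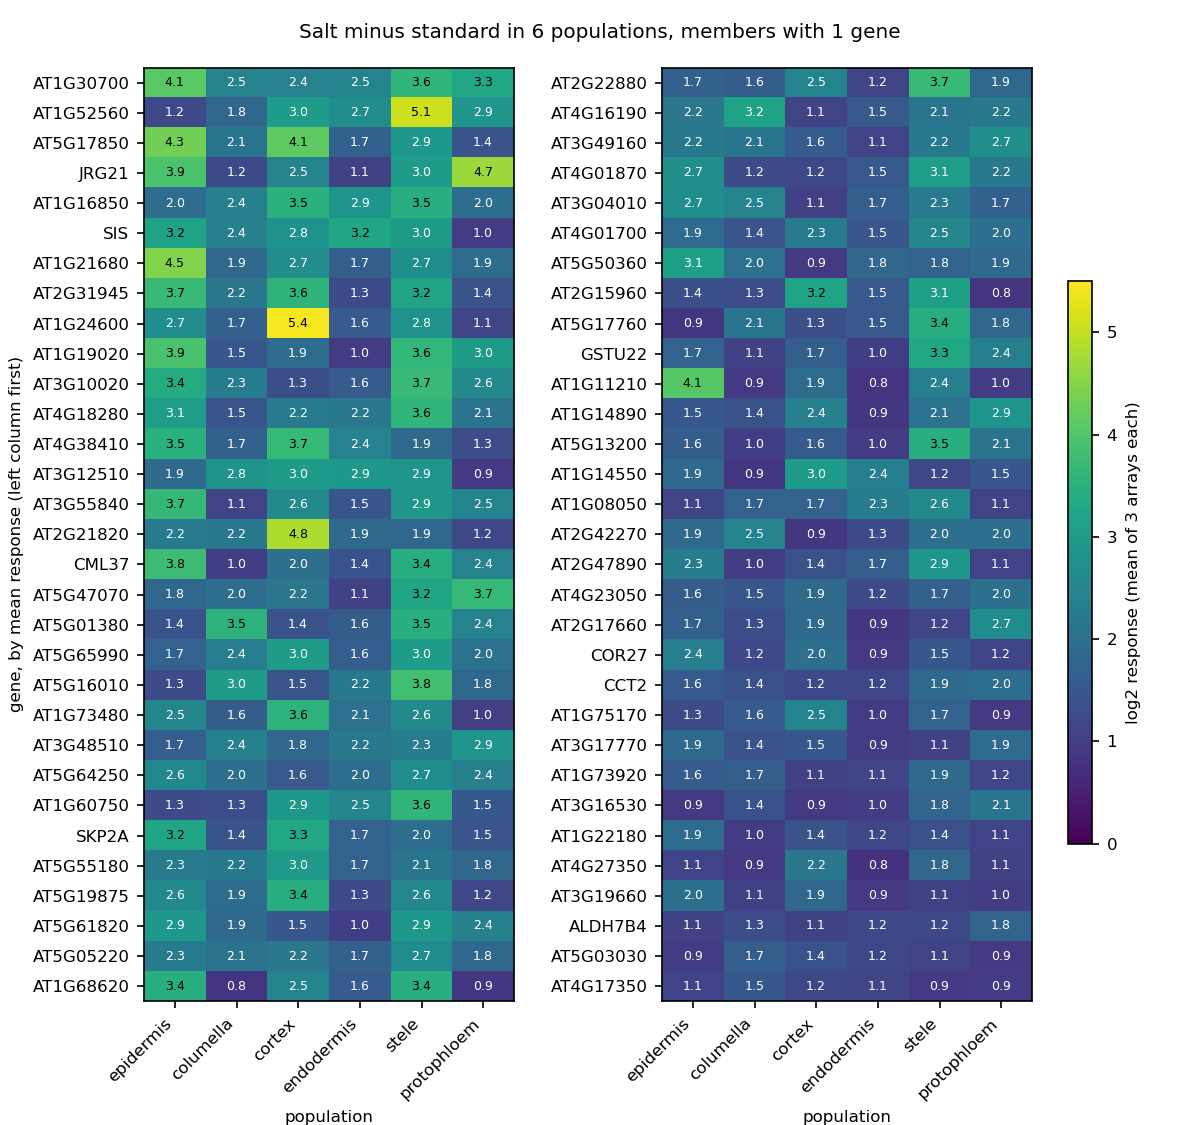
Log2 response (salt minus standard, means of 3 arrays each) of the 62 members with 1 gene, ordered by the mean of their 6 responses; each cell prints its value. AT1G30700 and AT1G52560 lead, and stele, epidermis and cortex hold the largest response of 16, 15 and 14 of the 62, protophloem of 11, columella of 5 and endodermis of 1.

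Among wall and surface genes, AT1G30700 had the largest mean response of the named members, at 3.07 on the log2 scale (8.4-fold). It encodes a berberine-bridge-like oxidase, a flavin enzyme of the cell exterior. Its signal on the 3 standard arrays was 96.8, 111 and 130 in epidermis, and it was 2048, 2270 and 2211 with salt. In protophloem, where it was lowest, it went from 3.52, 7.71 and 32.4 to 292, 264 and 218. In stele 2 standard arrays read 66.6 and 59.9 and replicate 3 read 509, while the salt arrays read 2006, 2529 and 1207. The salt arrays thus lay above the standard arrays in each of the 6 populations, with responses of 2.44 in cortex to 4.10 in epidermis (SE 0.60 each).

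AT5G55180 and AT3G04010 both encode glucan hydrolases of the family that cuts callose-type glucans. AT5G55180 ranged over the 18 standard arrays from 245 through a median of 1062 to 2431, and over the 18 salt arrays from 705 through 4664 to 16272. Its responses were even, from 1.72 in endodermis to 2.95 in cortex. AT3G04010 was less even, with 2.69 in epidermis and 1.06 in cortex. The chitinase gene AT4G01700 had responses of 1.45 in columella to 2.53 in stele, and the glycine-rich wall protein gene AT4G18280 had 1.47 in columella to 3.61 in stele.

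Other members of this group were far less uniform between arrays. The peroxidase gene AT1G14550 had salt signals of 2104, 3055 and 317 in endodermis against standard signals of 353, 246 and 145, and of 860, 2096 and 88.4 in cortex against 28.7, 38.5 and 128. Its arrays separated in epidermis and overlapped in the other 5 populations. AT1G14890, of the family of invertase and pectin methylesterase inhibitors, had responses of 0.89 in endodermis to 2.89 in protophloem. The lectin gene AT3G16530 had 0.91 in cortex to 2.14 in protophloem, with separated arrays in 4 populations.

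Of the members tied to protein protection, AT1G52560, a small heat shock protein gene, had the widest range between populations, 3.87. In stele its signal went from 15.9, 1.28 and 73 to 1341, 1592 and 878, a response of 5.09 ± 0.61 (SE). In epidermis it went from 7.05, 0.751 and 0.786 to 6.65, 31 and 61.7, a response of 1.22, and the 2 groups of arrays overlapped. Salt signals in epidermis thus stayed below the 371 that was the lowest salt array in cortex. The epidermis signals, and 15.9 and 1.28 in stele, lie within or below the range of the 40th percentile over arrays (32.4 to 66.3). The offset of 16 therefore weighs on the width of 3.87.

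The dehydrin-family gene AT4G38410, which belongs to the hydrophilic proteins that protect membranes and proteins in drying cells, had its highest signal before salt in columella. There it went from 3896, 5014 and 1309 to 12490, 9640 and 7564. In cortex it went from 39.4, 49.5 and 38 to 830, 592 and 805, so its response was 3.69 in cortex and 1.71 in columella. The seed maturation protein gene AT2G21820 had its largest response in cortex, from 46.3, 17.1 and 28 to 1928, 1891 and 546 (4.83 ± 0.51). In protophloem its salt arrays read 66, 35.1 and 15.1, within or below the range of the 40th percentile over arrays (32.4 to 66.3). Its standard arrays, at 1.45 to 46.3 over all populations, also lie within or below that range. The offset of 16 therefore weighs on each of its responses, the one in cortex included.

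The cysteine protease gene AT4G16190 had responses of 1.12 in cortex, where its standard signal was highest (1158, 1522 and 1074), to 3.19 in columella. AT5G03030, which encodes a protein with a DnaJ chaperone domain, had narrow responses of 0.92 to 1.67. The AAA ATPase gene AT5G17760 had 0.89 in epidermis and 3.43 in stele, and the RNA helicase gene AT2G42270 had 0.89 in cortex and 2.45 in columella.

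**Figure D3:**
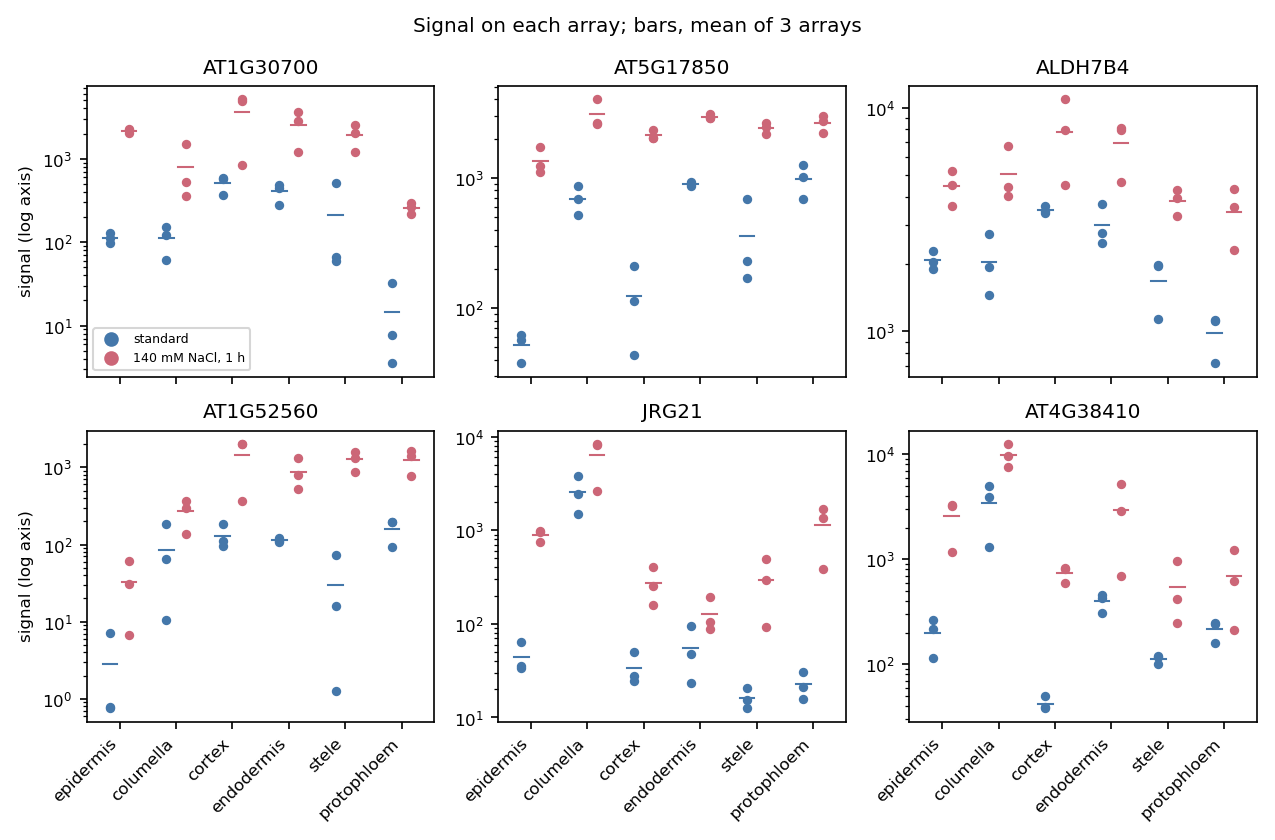
Signal on each of the 36 arrays for 6 members (log axis; points are arrays, bars the mean of 3). AT1G30700, AT5G17850 and ALDH7B4 separate in all 6 populations; AT1G52560 overlaps in epidermis and columella, JRG21 in columella and endodermis, and AT4G38410 in protophloem.

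Transport and membrane genes included AT5G17850, a gene of the sodium/calcium exchanger family. Its standard signals differed widely, at 61.7, 37.6 and 57.1 in epidermis, 43.7, 114 and 211 in cortex and 889, 862 and 922 in endodermis. Its salt signals were much closer to each other, at 1117, 1232 and 1712 in epidermis, 2318, 2030 and 2004 in cortex and 2890, 2869 and 3080 in endodermis. The response was therefore 4.32 ± 0.37 (SE) in epidermis, 4.14 in cortex and 1.71 in endodermis, and the arrays separated in all 6 populations.

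The amino acid transporter gene AT5G65990 had responses of 1.65 to 3.04 and separated arrays in all 6. CCT2, which encodes the enzyme that makes CDP-choline for the membrane lipid phosphatidylcholine, had 1.17 to 1.98. The Sec14-like lipid transfer genes AT1G22180 and AT1G75170 spanned 0.98 to 1.95 and 0.93 to 2.48. The alpha/beta hydrolase genes spanned 1.04 to 3.56 (AT1G73480), 1.08 to 1.90 (AT1G73920) and 0.83 to 3.44 (AT1G68620), and the GRAM domain gene AT5G13200 spanned 1.00 to 3.47.

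The metabolic members held one of the most even responses. ALDH7B4, an aldehyde dehydrogenase that removes reactive aldehydes formed in stressed cells, had a standard signal of 719 to 3726 with a median of 2005 over 18 arrays. With salt it had 2315 to 10909 with a median of 4452. Its response ranged from 1.07 in cortex to 1.76 in protophloem, a range of 0.69, and its arrays separated in all 6. The narrowest range of all named members was that of AT4G17350, at 0.60, with responses of 0.92 in stele to 1.52 in columella. CCT2, AT5G03030, AT4G23050 and AT1G73920 had ranges of 0.75 to 0.82.

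JRG21, which encodes an oxygenase that inactivates jasmonate, was one of the least even. It read 3817, 2452 and 1488 in columella before salt and at most 95.3 on any standard array of another population. With salt it read 8176, 8303 and 2634 in columella, where the arrays overlapped, 1666, 1338 and 390 in protophloem and 984, 955 and 747 in epidermis. In endodermis it went from 95.3, 47.8 and 23.1 to 87.3, 194 and 104, and the arrays overlapped there too. Its responses were 4.67 in protophloem, 3.94 in epidermis and 1.07 in endodermis (SE 0.51 each).

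GSTU22, a glutathione transferase gene, had 3.30 in stele and 1.03 in endodermis, and the aldo-keto reductase gene AT1G60750 had 3.63 in stele and 1.27 in epidermis. AT5G16010, of the steroid reductase family, had 3.83 in stele and 1.26 in epidermis. In columella its salt arrays read 3935, 4013 and 322. AT5G64250, AT3G49160 of the pyruvate kinase family and the dihydroxyacetone kinase gene AT3G17770 had mean responses of 2.21, 2.01 and 1.46. All 8 members of this metabolic group had their largest response in stele or protophloem, 4 in each. Over the 62 named members the counts were 16 in stele and 11 in protophloem. The group was drawn up after the values had been seen.

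Signalling members covered several layers of control. CML37, a calmodulin-like calcium sensor, went from 188, 98.6 and 143 to 2124, 2000 and 2178 in epidermis, a response of 3.77 ± 0.47 (SE). In columella it went from 1551, 964 and 1562 to 3129, 2823 and 2262, a response of 1.02, so the salt levels of the 2 populations were closer than their standard levels. Salt arrays of CML37 lay above standard arrays in all 6 populations. The receptor-like cytoplasmic kinase gene AT5G47070 had 3.68 in protophloem and 1.07 in endodermis, and the Raf-like kinase gene AT4G23050 had an even 1.25 to 2.03.

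Genes of transcription included the trihelix factor gene AT5G01380 (1.40 to 3.55), the B-box zinc finger gene AT2G47890 (1.00 to 2.91), the MADS-box family gene AT3G12510 (0.93 to 3.02) and COR27 (0.94 to 2.36), a cold-regulated repressor of the circadian clock. The arrays of AT5G01380 separated in 3 populations. Its largest response was in columella, where salt arrays read 1785, 2515 and 97.4 against 50.9, 25.8 and 98.5 on standard medium. The VQ motif gene AT2G22880 had 1.16 to 3.70, with separated arrays in 3 populations. Transcripts of AT3G48510 and AT5G50360 are known to respond to ABA. AT3G48510 had 1.67 in epidermis to 2.88 in protophloem, and its arrays separated in all 6. AT5G50360 had standard signals from 1.22 through a median of 5.04 to 60.2 and salt signals from 8.16 through 87.4 to 272.

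Also in the signalling group were genes of protein turnover, namely SKP2A, an F-box protein of a ubiquitin ligase that degrades cell cycle factors, and the RING zinc finger gene AT1G08050. SKP2A had responses of 1.43 in columella to 3.28 in cortex, with separated arrays in all 6. AT1G08050 had 1.13 in protophloem to 2.60 in stele, with separated arrays in 5. AT2G17660, of the family of the immune regulator RIN4, had 0.89 in endodermis to 2.67 in protophloem. In endodermis its arrays overlapped, with 242, 283 and 53.6 on standard medium and 599, 210 and 228 with salt.

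The last 17 named members are linked to stress or have no role stated here. SIS, a serine-rich gene known as salt-induced, had responses of 2.40 to 3.24 in 5 populations. In protophloem it went from 215, 175 and 202 to 388, 393 and 431, a response of 0.98 with separated arrays. AT3G10020, known from hypoxia, went in stele from 108, 146 and 232 to 2670, 2887 and 1481 and had 1.32 in cortex. AT1G21680 and AT4G01870, 2 genes whose products resemble the bacterial protein TolB, had separated arrays in all 6, with responses of 4.45 and 2.72 in epidermis and smallest responses of 1.66 and 1.19.

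AT1G16850 had 1.97 in epidermis to 3.53 in cortex, and its arrays separated in all 6 populations. AT1G24600 had the widest range of all named members, 4.29. In cortex it went from 1.28, 1.15 and 4.08 to 1161, 1323 and 284, and in protophloem from 6.27, 166 and 1.98 to 34.5, 66.2 and 171, where the arrays overlapped. AT1G19020 had 0.97 in endodermis and 3.92 in epidermis, AT1G11210 had 0.83 and 4.06 in the same populations, and AT3G55840 had 1.13 in columella and 3.67 in epidermis. AT5G61820, AT2G31945, AT5G05220, AT5G19875, AT2G15960, AT4G27350 and AT3G19660 had mean responses of 1.32 to 2.56.

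Mean responses by role group had medians of 2.08 for the 13 signalling genes, 1.96 for 8 wall and surface genes, 2.06 for 7 genes of protein protection and turnover, 1.81 for 9 transport and membrane genes, 2.10 for 8 metabolic genes and 2.17 for the last 17. The groups were drawn up after the values had been seen, and no test was made of them. The mean response had a median of 2.05 over all 158 members and 2.10 over the 62 with 1 gene. Of the members without a gene name, 6 had a mean response above that of AT1G30700. The strongest had 5.62 to 567 on standard arrays and 1943 to 13846 with salt, with no overlap between the 18 arrays of each medium. The next had 41.2 to 1534 on standard arrays and 807 to 14734 with salt.

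The rule set no limit on the mean level of each population over both media, which rests on the sum of the 2 medium means. It used their difference, but that comes from the same group means. A rise in every population also needs some signal with salt there, so the choice of members can bear on their levels. The level tests are therefore not independent of that choice, and how far it shaped them was not tested. The mean level was tested across the whole table with limma. Of the 158 members 156 differed between the 6 populations by the moderated F-test at an adjusted p under 0.05, against a background of 87.7% of the probe sets tested. AT3G16530 (adjusted p = 0.229) and 1 unnamed probe set were not called. The share is near the background, but the differences were wide: the highest population lay above the lowest by a median of 2.56 on the log2 scale (5.91-fold) over the members and by 1.29 over all tested. In bulk RNA of sorted cells, fewer cells of a type and less RNA per cell cannot be told apart.

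**Figure D4:**
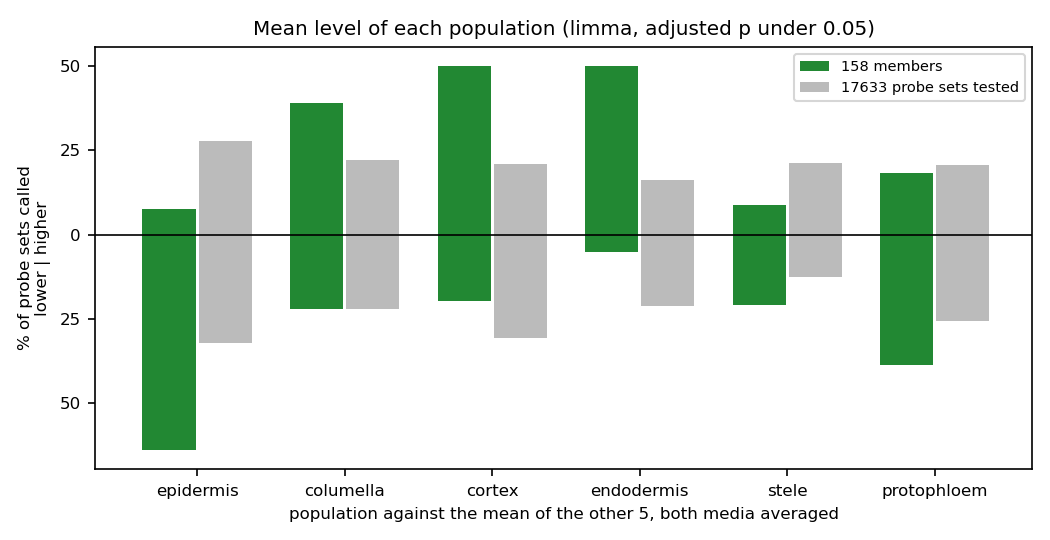
Percentage of the 158 members (green) and of the 17633 probe sets tested (grey) whose mean level over both media was called higher (upward bars) or lower (downward bars) in a population than in the other 5. In epidermis 63.9% of the members were lower against 32.2% of all tested, and in cortex and endodermis 50% of the members were higher.

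Against the mean of the other 5 populations, 101 members were lower in epidermis and 12 were higher (background 32.2% lower and 27.9% higher). In endodermis 79 were higher and 8 lower (16.1% and 21.3%), in cortex 79 and 31 (21% and 30.6%), and in columella 62 and 35 (22.2% and 22%). In protophloem 29 were higher and 61 lower (20.8% and 25.7%), and in stele 14 and 33 (21.2% and 12.7%). The median difference of the members was -0.90 in epidermis, 0.53 in endodermis, 0.50 in cortex, 0.27 in columella, -0.19 in stele and -0.27 in protophloem, against -0.09 to 0.06 over all tested. On the standard arrays alone 7 members were higher in stele (4.43%, with 20.4% of all tested) and 47 lower (29.7%, with 11%). On the salt arrays alone 18 were higher (11.4%, with 5.48% of all tested) and 5 lower (3.16%, with 3.91%), so the balance in stele turned between media. Counts on a single medium use the group means whose difference chose the members. This turn is therefore not separate from the large rise of the members in stele. Members higher in endodermis numbered 84 on the standard arrays (53.2%, with 14.8% of all tested) and 26 on the salt arrays (16.5%, with 7.88%). Those higher in columella numbered 58 (36.7%, with 20%) and 39 (24.7%, with 12.3%). Those lower in epidermis numbered 103 (65.2%, with 32.4%) and 63 (39.9%, with 16.5%). In each of these comparisons the share of all tested was also smaller on the salt arrays. Without stele standard replicate 1, 2 or 3 the count of members lower in stele was 20, 19 or 52. Without the 3 arrays that stood apart, 68 were lower in stele, 110 lower in epidermis, 79 higher in columella, 86 higher in cortex and 81 higher in endodermis. With the GAPDH ratio as a covariate, whose values in epidermis are given above, the count lower in epidermis was 58 (36.7%, with 18.8% of all tested), and the part of RNA quality in the remaining difference was not tested.

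JRG21 was 27.5-fold higher in columella than in the mean of the other 5 (log2 difference 4.78 ± 0.28 SE, limma adjusted p = 8.0e-15), and AT4G38410 was 12.9-fold higher there. AT1G14890 was higher in stele (adjusted p = 7.3e-10) and lower in epidermis (adjusted p = 1.1e-11), where its standard arrays read 1.16, 2.84 and 6.26 and its salt arrays 42.1, 20.8 and 61.2. These epidermis signals lie within or below the range of the 40th percentile over arrays, so no fold is given. The other folds are on the log2(signal + 16) scale, and where a group reads that low their size rests in part on the offset. In cortex AT1G68620, AT4G16190 and AT2G21820 were higher by 2.48, 2.46 and 2.44 on the log2 scale. AT4G16190 was 8.21-fold lower in protophloem, followed there by AT1G30700 (7.1-fold lower) and GSTU22 (5.62-fold lower).

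Among the named members, GSTU22 had the largest difference upward in epidermis (4.08-fold), ahead of AT4G01700 and AT4G16190 (2.88-fold and 2.06-fold). AT5G16010 was 7.53-fold lower in epidermis. AT1G52560 was also lower there (adjusted p = 1.0e-09), with signals of 0.751 to 61.7, and no fold is given for it. In endodermis AT1G14550, AT5G47070 and AT2G47890 were higher by 2.48, 1.61 and 1.46, in protophloem AT1G08050 was higher by 2.54, and in stele SIS was lower by a log2 difference of -1.51. These named differences passed at adjusted p-values of 2.3e-04 or less.

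A member tended to stay highest in the same population on both media. This held for 98 of 158 members (62%), against 43.5% of the probe sets tested, and the lowest population was the same for 91 (57.6%, against 36.9%). The gap between the highest and the lowest population had a median of 2.74 on standard medium and 2.47 with salt. It was narrower with salt for 95 members (60.1%), a share below the 65.4% of all tested. No test was made of these shares, which rest in part on the values that chose the members.

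The rule draws its line through a continuous distribution. Before names were left out, 168 probe sets rose by 0.8 or more in 6 populations, 278 in 5, 535 in 4 and 859 in 3. A fall of the same size was found in 6 populations for 20 probe sets. Of the 278 that rose in 5 populations, 81 missed the line in protophloem, 76 in endodermis, 48 in columella, 40 in cortex, 29 in epidermis and 4 in stele. Of the 81 short in protophloem, 33 were at or below 0 there.

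**Figure D5:**
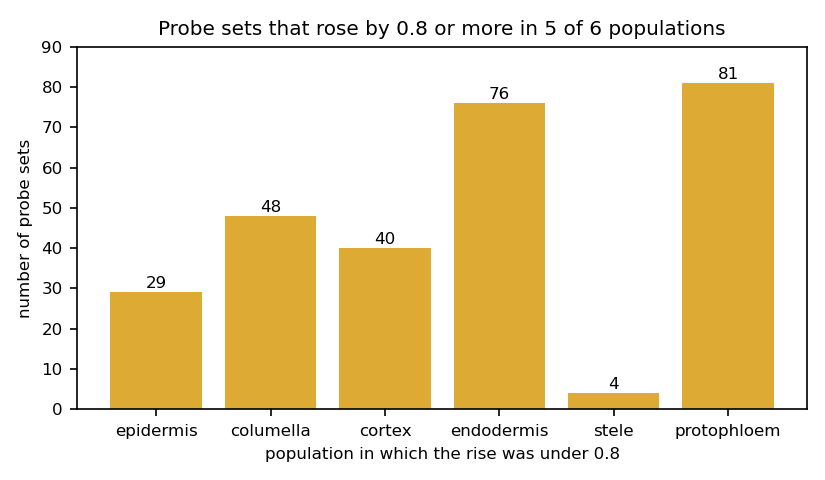
Number of probe sets that rose by 0.8 or more in 5 populations, by the population in which the rise was smaller. Protophloem (81) and endodermis (76) account for most, and stele for 4.

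The named members just inside the line were AT4G27350, AT2G15960, AT1G68620, AT1G11210 and AT1G14550, with smallest responses of 0.808, 0.818, 0.830, 0.831 and 0.875. Just outside it were TET8, a tetraspanin gene, at 0.781, AT2G38000 at 0.777, AT3G26910 at 0.773, AT2G39400 at 0.772 and AT1G07160 at 0.768. TET8 had a mean response of 1.47, above that of AT4G27350 (1.32), and AT1G07160 had 1.89, the same as AT2G15960.

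Of 132 genes in 11 lists of ABA, dehydration, ion transport, osmoprotectant, chaperone and catabolic functions, 10 had a probe set naming 1 gene, and 9 of them were tested. The lists of ABA receptors, phosphatases, kinases with bZIP factors, ABA synthesis and breakdown, osmoprotectants, ion transport and peroxide removal had no such member, so the upstream pathway could not be set beside the members. The list of amino acid breakdown and energy shortage had 6 genes tested, including ALDH7B4, which is a member. ALDH7B4 was chosen for its rise and is left out of the counts. At an adjusted p under 0.05 the limma fit called MCCA, LKR and IVD higher in epidermis, MCCA and LKR in stele, MCCA in columella and in cortex, and none of the 5 in endodermis or protophloem. Over all probe sets tested the shares called higher were 15.6% in epidermis, 11.5% in stele, 5.27% in columella, 22.4% in cortex, 1.5% in endodermis and 11.8% in protophloem. None of the 5 was called lower in any population.

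LKR, the first enzyme of lysine breakdown, rose by 3.27 in epidermis and was at 0.05 in protophloem, and MCCA, an enzyme of leucine breakdown, rose by 1.75 in epidermis and was at 0.03 in endodermis. The zinc finger gene STZ rose in epidermis (1.35), cortex (1.86) and stele (1.46) and had -0.50 in columella. COR15B rose in cortex (1.53), and HSP22 rose in stele (1.52). None of these 5 genes reached the line in all populations.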

How the data were processed

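Each of the 36 deposited arrays has a linear intensity for every probe set. Per the submitters' processing notes the tool was MAS5, and the deposited intensities share one trimmed mean. The MAS5 version is not given in the sources used here, and detection calls were not used. RNA was amplified before labelling per the labels' protocols. Sequences and coordinates were not used here.

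Signals were transformed as log2(signal + 16). limma 3.58.1 under R 4.3.3 estimated 12 group means from the 36 arrays together (eBayes with trend, 24 residual degrees of freedom). The fit held the 17633 probe sets whose signal exceeded the array's 40th percentile 3 or more times. Tests were two-sided, and a call is an adjusted p under 0.05 (Benjamini-Hochberg over all probe sets tested). Contrasts covered the salt response of each population and the mean level over both media between populations. The code was tested on simulated data. Genes are named from probe sets with 1 gene in the platform annotation, and symbols follow RefSeq TAIR10.1. Sets of probes shared by related genes could not be checked.

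The members, lists, roles and tests were chosen with earlier results of these data known. Named genes were those with the largest mean, the largest smallest, the narrowest or the widest responses, the largest differences in level and those at the line; other members are named once by role. Alternatives were another offset, quantile normalization, group medians, no filter, a replicate block, the GAPDH ratio as a covariate, no trend, 1 medium, other thresholds and leaving out arrays. Deviations of same-numbered arrays of the 2 media had correlations of -0.12 to 0.45 over 18 pairs, not all over 0.1, so the numbers were not treated as pairs. Replicates 1 and 3 had 0.34 and 0.45 in stele and 0.31 and 0.30 in columella, and replicate 3 had 0.34 in endodermis. The other pairs had at most 0.14. The replicate block fitted effects common to all groups, so pairing within a population was not tested. Tables and figures used Python 3.11.15, pandas 2.3.3, numpy 2.4.6 and matplotlib 3.10.9.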

Additional observations from a re-analysis of the deposited data

How the results depend on the processing

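The number of members, 158, was 97 with an offset of 64, 99 with a smallest response of 1 and 272 with one of 0.6. It was 144 to 171 without 1 array, and 77 members stayed past the line whichever of the 36 arrays was left out. The median response was 2.63, 1.52 and 1.56 in epidermis with an offset of 1, an offset of 64 and the GAPDH covariate, and 1.42 and 2.23 in protophloem with an offset of 64 and that covariate. Without 1 array of the population it was 2.01 to 2.18 in epidermis, 1.54 to 2.07 in columella, 1.98 to 2.37 in cortex, 1.44 to 1.65 in endodermis, 2.41 to 2.86 in stele and 1.57 to 1.95 in protophloem. The mean response of no named member changed sign, but the smallest response of 8 of them was below 0 with the GAPDH covariate.

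For mean levels, the GAPDH covariate gave 58 members lower in epidermis and 19 higher in protophloem. On the salt arrays alone 63 were lower in epidermis, 39 higher in columella, 18 lower in cortex, 26 higher in endodermis, 5 lower in stele and 18 higher in protophloem. On the standard arrays alone 4 were lower in endodermis and 7 higher in stele. These fits use fewer arrays, and the shares of all tested that were called were smaller in them as well. The causes of the other changes were not tested. Without stele standard replicate 3, columella salt replicate 3 and cortex salt replicate 3, chosen after seeing the data, 68 were lower in stele and 158 differed between populations. Without 1 array, 153 to 157 differed. The ranges of members higher and lower were 11 to 14 and 98 to 107 in epidermis, 50 to 75 and 29 to 37 in columella, 65 to 84 and 28 to 34 in cortex, 68 to 82 and 7 to 9 in endodermis, 11 to 16 and 19 to 52 in stele, and 25 to 31 and 53 to 66 in protophloem.

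Since the salt contrasts chose the members, counts of members called in them describe the settings and support nothing. In epidermis the count was 135, and 79 with the GAPDH covariate. Without 1 array the counts ranged from 117 to 137 in epidermis, 77 to 135 in columella, 122 to 147 in cortex, 52 to 93 in endodermis, 140 to 152 in stele and 93 to 136 in protophloem. The low values in columella and endodermis were those without columella salt replicate 2 and endodermis salt replicate 1. A replicate block moved no count by over 1.5 times, with 103 members lower in epidermis. Low signals limit precision, since detection calls were not used here.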
